A study of Rattus norvegicus with 7 samples.

Results

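The genes described here are 8 kallikrein-related peptidases (Klk5, Klk6, Klk7, Klk8, Klk10, Klk11, Klk13 and Klk14), the inhibitor gene Spink5 and the protease gene St14. All were measured by RNA sequencing in rat meibomian glands with and without ultraviolet B (UVB) exposure of the eyelid. They were taken by symbol from a list that was chosen with earlier results of these data known. All 10 of the 10 were found among the 17246 genes of the deposited tables. All 7 samples came from wild-type female Sprague-Dawley rats, an outbred strain, aged 3 months. The control group has 4 libraries and is labelled as not treated. The UVB group has 3 libraries from rats whose shaved upper eyelids received 300 mJ/cm2 over 5 min each day on 5 days. Glands were dissected from the removed lids and frozen. The labels do not say whether control lids were shaved or how long after the last exposure the glands were taken. The columns of the tables carry no replicate numbers, so libraries are given letters, a to d among the controls and a to c after UVB, which pair nothing; values are listed in that order throughout. P-values measure the spread between these libraries, which the labels do not state to be 1 animal each.

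Kallikrein-related peptidases are secreted serine proteases that keratinocytes make as inactive precursors and release into the spaces between cells near the surface. There they are activated in a cascade, cut the corneodesmosomes that hold dead surface cells together, and so let the surface layer shed. LEKTI, the multi-domain inhibitor encoded by Spink5, holds some of these proteases in check, and its loss causes the skin disorder Netherton syndrome. The meibomian gland is a modified sebaceous gland that empties lipid through a duct lined by keratinising epithelium, and excess keratinisation of the duct and orifice is a known feature of meibomian gland dysfunction.

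The libraries held 20680237 to 28784941 counts. The tissue label was checked on gene lists. The 9 meibocyte markers (Scd, Awat2 and others) summed to between 46442 and 55982 TPM in the controls and between 41839 and 48758 TPM after UVB, where TPM is a transcript level corrected for gene length and scaled to a common total. By the test described in the next paragraph, 3 of these 9 were lower after UVB (Awat2, Plin2 and Cidea) and none was higher, while Scd, the most abundant of them, did not pass. Squamous epithelium was in the tissue too. The 10 epidermal differentiation markers found in the tables (Krt1, Krt10 and others) summed to between 2381 and 2989 TPM in controls and to 3136, 2645 and 4130 TPM in UVB a, b and c. Of the 10, 3 were higher (Tgm1, Tgm3, Sprr1b) and 2 lower (Krt2, Krt77) after UVB. The call of Tgm1 held in 10 of 17 alternative settings and that of Krt2 in 12 of 16. The 6 basal keratinocyte markers summed to between 8109 and 10332 TPM in controls and between 10579 and 11685 TPM after UVB, with 3 higher (Krt14, Itgb4 and Itga6, the last in 6 of 17 settings). Of the conjunctival markers only 3 were analysed. Krt13 had a mean of 3597 TPM in controls and 4188 TPM after UVB, and Krt4 had 1180 and 1298 TPM. Neither passed the test, and Tff1 stayed under 1 TPM in every library. The 9 leukocyte markers summed to between 1646 and 1841 TPM in controls and between 1899 and 2160 TPM after UVB, mostly from S100a8 and S100a9; the other 7 summed to 46.6 to 85.8 TPM and 45.6 to 66.3 TPM, with Ms4a1, a B cell marker, under 1 TPM in every library.

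The kallikrein transcripts moved unequally after UVB. Klk6, Klk14, Klk13 and Klk8 rose, Klk5 and the inhibitor gene Spink5 fell, and Klk7, Klk10, Klk11 and St14 did not pass the test. Differences were tested on counts with the quasi-likelihood test of edgeR across all 13709 genes that passed its filter on low counts, with Benjamini-Hochberg adjustment and a threshold of 0.05. Of the 10 genes 6 passed, 4 higher and 2 lower, where 13.0% of all genes tested passed, 6.30% higher and 6.74% lower. The same 6 were those whose UVB and control libraries did not overlap, which held for 26.6% of all genes tested. Because the 10 genes were chosen with earlier results of these data known, these shares describe them and are no test of the set. The median log2 fold change of the 10 was 0.15, and that of all genes tested was -0.0058. In dissected tissue, fewer cells of a type and less RNA per cell cannot be told apart, and the marker sums above moved between the groups as well; their part in the changes below was not tested beyond the values given.

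**Figure D1:**
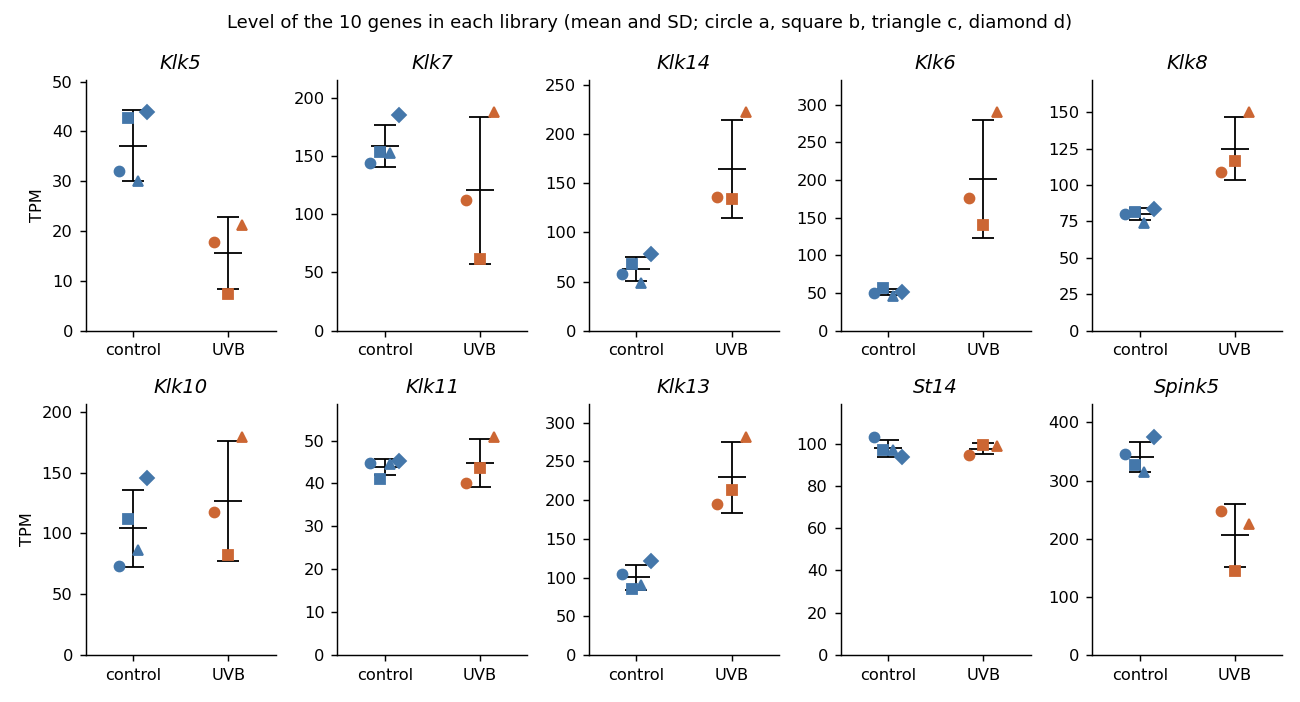
Level of each of the 10 genes in TPM (vertical axes from 0) in the 4 control and 3 UVB libraries, with 1 symbol per library and bars for the mean and SD of each group. All 3 UVB libraries lie above all 4 controls for Klk14, Klk6, Klk8 and Klk13 and below them for Klk5 and Spink5, and the groups overlap in the other 4 panels.

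Klk5, Klk7 and Klk14 encode the proteases best known for cutting corneodesmosomes, and of these Klk5 fell, Klk14 rose and Klk7 did not pass the test. Klk5 (NCBI gene 102546758), a trypsin-like enzyme that activates itself and other kallikreins, measured 32.0, 42.6, 30.1 and 43.8 TPM in the controls and 17.9, 7.41 and 21.3 TPM after UVB. Every UVB library was below every control, with UVB b far below the other UVB libraries. The mean was 37.1 ± 7.09 TPM (SD, n = 4) among the controls against 15.5 ± 7.23 TPM (SD, n = 3), and the log2 fold change was -1.27 (95% interval -2.05 to -0.50, SE 0.332; adjusted p = 0.0461, edgeR). This call is near the threshold: it held in 9 of 17 alternative settings, with adjusted p-values of up to 0.108, and was lost on leaving out any control library or UVB a. Klk5 had between 147 and 781 counts per library, the lowest in UVB b. RefSeq lists 5 Klk5-like genes and pseudogenes, which were not analysed here. The deposited Klk5 counts were whole in every library, and how reads that match several genes were counted is not given in the sources used here.

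Klk7 (NCBI gene 292852) encodes the chymotrypsin-like stratum corneum enzyme, which Klk5 protein can activate. Its level was 144, 153, 153 and 185 TPM in the controls and 112, 61.6 and 187 TPM after UVB. UVB a and b lay below all controls, and UVB c lay above all of them. The log2 fold change of -0.41 (95% interval -1.16 to 0.35, SE 0.323; adjusted p = 0.442, edgeR) therefore had an interval that spans 0. Without UVB c it was -0.88 with an adjusted p of 0.0477, and without UVB b it was -0.09.

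Klk14 (NCBI gene 308562), a trypsin-like protease that also cuts the receptor PAR2, rose. It measured 58.1, 67.5, 48.5 and 77.6 TPM in the controls and 137, 135 and 222 TPM after UVB. All UVB values were above the highest control, and UVB c was the highest. Means were 62.9 ± 12.5 TPM (SD, n = 4) and 165 ± 50.2 TPM (SD, n = 3), which gives a log2 fold change of 1.38 (95% interval 0.86 to 1.90, SE 0.222; adjusted p = 0.0104, edgeR), or 2.60-fold. The call held in 17 of 17 alternatives. In RefSeq Klk14 overlaps the uncharacterised gene LOC120098456, and how the counting treated strand is not given in the sources used here.

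Klk6, Klk13 and Klk8, trypsin-like kallikreins of squamous epithelium, rose too. Klk6 (NCBI gene 29245), also called neurosin, showed the highest log2 fold change of the 10 genes. It stood at 49.99, 56.8, 46.2 and 51.6 TPM in the controls and at 176, 140 and 290 TPM after UVB. Every UVB library was far above every control. Means were 51.2 ± 4.39 TPM (SD, n = 4) and 202 ± 78.2 TPM (SD, n = 3), with a log2 fold change of 1.97 (95% interval 1.44 to 2.50, SE 0.227; adjusted p = 0.00402, edgeR), or 3.92-fold.

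Klk13 (NCBI gene 292848) is known from oral and other non-keratinised squamous epithelia. It measured 105, 85.4, 90.2 and 121 TPM in the controls and 195, 213 and 282 TPM after UVB. No UVB library came near the controls. Its log2 fold change was 1.19 (95% interval 0.82 to 1.56, SE 0.160; adjusted p = 0.00562, edgeR), or 2.28-fold, from 100 ± 16 TPM (SD, n = 4) to 230 ± 46.0 TPM (SD, n = 3).

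Klk8 (NCBI gene 308565), or neuropsin, is known from synaptic plasticity in brain and from keratinocyte differentiation in skin. Its level was 80.1, 81.6, 74.0 and 83.6 TPM in the controls and 109, 117 and 150 TPM after UVB. The controls were close together and all UVB libraries lay above them. The log2 fold change was 0.64 (95% interval 0.40 to 0.89, SE 0.109; adjusted p = 0.00844, edgeR), or 1.56-fold, which makes it the smallest of the 4 rises. Klk6, Klk13 and Klk8 each kept their call in 17 of 17 alternatives, with adjusted p-values of up to 0.0173, 0.0188 and 0.0288.

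Neither Klk10 nor Klk11 passed the test, and they differed in how precisely they were measured. Klk10 (NCBI gene 292850), a kallikrein of normal epithelia also called NES1, ranged widely in both groups. It measured 73.1, 112, 86.5 and 145 TPM in the controls and 118, 82.3 and 180 TPM after UVB. The groups overlapped over most of their range, and the log2 fold change was 0.28 (95% interval -0.44 to 1.01, SE 0.309; adjusted p = 0.591, edgeR). Klk11 (NCBI gene 292849), a trypsin-like kallikrein, was the steadier of the pair. It measured 44.8, 41.1, 44.5 and 45.2 TPM in the controls and 40.0, 43.6 and 50.9 TPM after UVB. UVB a was just below the controls and UVB c just above them. Its log2 fold change was 0.03 (SE 0.0920, adjusted p = 0.882 in edgeR), and the 95% interval of -0.18 to 0.23 leaves room for small changes only.

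St14 encodes matriptase, a protease anchored in the cell membrane that acts upstream, on the precursors of prostasin and of kallikreins; it is not an inhibitor. St14 (NCBI gene 114093) measured 103, 97.3, 96.9 and 93.8 TPM in the controls and 94.8, 99.2 and 99.1 TPM after UVB. The UVB values lay within the control range. The means of 97.8 ± 3.96 TPM (SD, n = 4) and 97.7 ± 2.53 TPM (SD, n = 3) gave a log2 fold change of -0.01 (SE 0.0612), with an interval of -0.14 to 0.13 (edgeR adjusted p = 0.953). Its spread of 2.59% of the mean in the UVB libraries was the lowest of the 10 genes, against 52.6% for Klk7 and 46.6% for Klk5.

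Spink5, the inhibitor gene, was the most abundant of the 10 in controls and fell after UVB. Spink5 (NCBI gene 361319) measured 345, 327, 315 and 375 TPM in the controls and 247, 144 and 226 TPM after UVB. The highest UVB library was below the lowest control, and UVB b was again the lowest. Means of 341 ± 26.3 TPM (SD, n = 4) and 206 ± 54.3 TPM (SD, n = 3) gave a log2 fold change of -0.74 (95% interval -1.11 to -0.36, SE 0.165; adjusted p = 0.0245, edgeR), or 1.67-fold lower. The call held in 14 of 17 alternatives and was lost without control a (adjusted p = 0.0517), control b (0.0504) or control d (0.0629).

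With these changes the order of the 10 genes by TPM was rearranged. In controls Spink5 led, followed by Klk7, Klk10, Klk13, St14, Klk8, Klk14, Klk6, Klk11 and Klk5. Neighbours in that order were separated by the ranges of their libraries at 3 steps only, Spink5 over Klk7, St14 over Klk8, and Klk6 over Klk11. After UVB the order was Klk13, Spink5, Klk6, Klk14, Klk10, Klk8, Klk7, St14, Klk11 and Klk5, and only the steps from St14 to Klk11 and from Klk11 to Klk5 were free of overlap. Klk5 was the lowest in both groups, though in controls its range met that of Klk11. Even so, all 10 genes were well expressed: Klk5 stood above 78.9% and Spink5 above 97.9% of the genes in the table by mean control TPM.

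The kallikrein transcripts also differed in sum and make-up. The summed TPM of the 8 kallikreins was 587, 640, 573 and 753 in the controls and 904, 798 and 1383 after UVB. The groups did not overlap, and UVB c stood apart from the other UVB libraries. Klk6 supplied 8.08% ± 0.883 of that sum in controls (SD, n = 4) and 19.3% ± 1.73 after UVB (SD, n = 3). For Klk7 the share went the other way, from 24.9% ± 1.22 (SD, n = 4) to 11.2% ± 3.10 (SD, n = 3), and for Klk5 from 5.79% ± 0.623 (SD, n = 4) to 1.48% ± 0.526 (SD, n = 3). The sum that divides each share was itself higher after UVB, and the level of Klk7 did not pass the test. Klk14 supplied 9.80% ± 0.934 (SD, n = 4) and 16% ± 0.868 (SD, n = 3), shares that varied less between libraries than its level did. For Klk8 the share was alike in both groups, at 12.6% ± 1.08 (SD, n = 4) and 12.5% ± 1.93 (SD, n = 3), while its level rose. These sums and shares describe the members and carry no test.

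**Figure D2:**
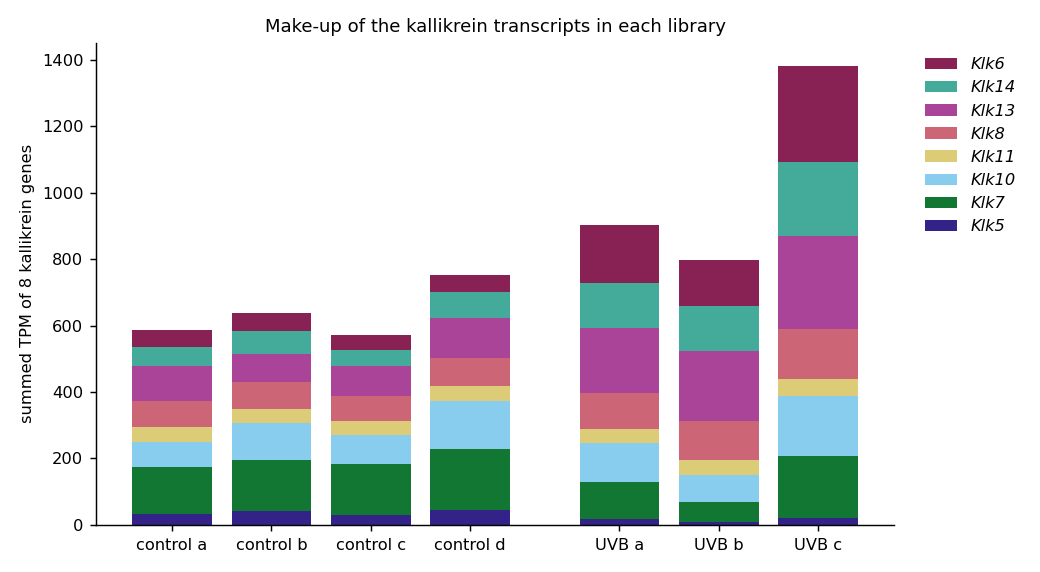
Stacked bars of the TPM of the 8 kallikrein genes (vertical axis, from 0) in each of the 7 libraries. The bars total 573 to 753 TPM in controls and 798 to 1383 TPM after UVB, and the Klk6 segment grows while the Klk5 segment shrinks in all 3 UVB libraries.

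Set against the inhibitor transcript, kallikrein transcripts were 1.70, 1.96, 1.82 and 2.01 times the Spink5 TPM in the controls and 3.66, 5.54 and 6.12 times in UVB a to c. The ratio was 1.87 ± 0.139 (SD, n = 4) among the controls against 5.11 ± 1.29 (SD, n = 3). Both terms moved: the sum was higher and Spink5 was lower in every UVB library than in every control. For Klk5 and Klk7 together the ratio to Spink5 was 0.575 ± 0.0457 (SD, n = 4) and 0.643 ± 0.245 (SD, n = 3), with UVB c at 0.924 and UVB a and b at 0.526 and 0.478, the latter below all controls. That ratio leaves out Klk14, which rose. A transcript ratio says nothing of the amounts of active protease or of inhibitor protein, which were not measured.

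**Figure D3:**
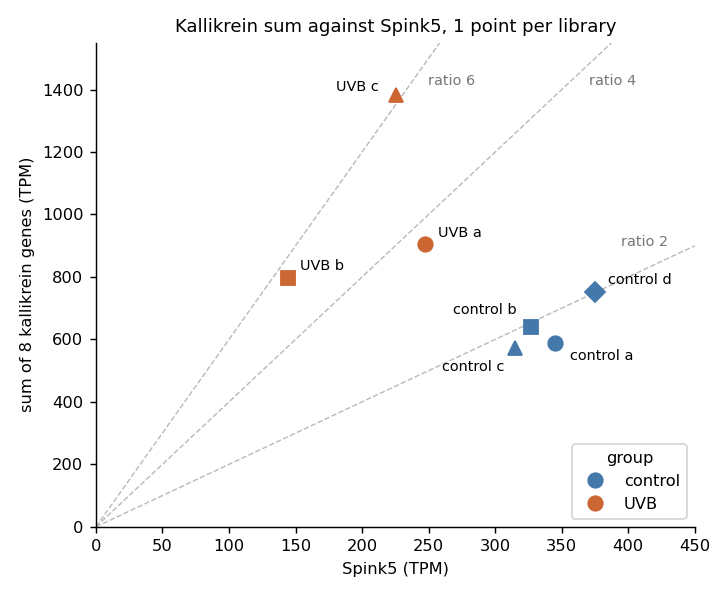
Summed TPM of the 8 kallikreins (vertical axis) against Spink5 TPM (horizontal axis), 1 point per library, with dashed lines at fixed ratios of 2, 4 and 6. The 4 controls lie at or near a ratio of 2 and the 3 UVB libraries between 3.66 and 6.12.

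Within a group, the same library tended to be high for most kallikreins. UVB c was the highest UVB library for 8 of the 8 kallikreins, and UVB b the lowest for 5. Control d was the highest control for 7 of the 8, all except Klk6. Among the UVB libraries the summed epidermal differentiation markers had the same top and bottom, at 4130 TPM in UVB c, 3136 TPM in UVB a and 2645 TPM in UVB b. Among the controls they were not in that order, since control b had the highest sum at 2989 TPM and control d had 2793 TPM.

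Each gene was therefore also expressed per 100 TPM of the summed differentiation markers, a scale chosen after the values were seen. Most of that sum came from Krt1, with means of 1471 TPM in controls and 1943 TPM after UVB, and Krt10, with 877 and 926 TPM. The other markers therefore weigh little in the scale. The marker sum is itself higher in UVB a and c than in any control, so the scale lowers every gene in those libraries. On it the groups of 7 genes did not overlap, the 6 above and Klk7, where 21.7% of all genes tested did not overlap. Klk6 ranged from 1.85 to 1.99 in controls and from 5.28 to 7.01 after UVB. Spink5 ranged from 10.9 to 13.8 in controls and from 5.45 to 7.88 after UVB. Klk7, whose levels in TPM overlapped, ranged from 5.12 to 6.64 in controls and from 2.33 to 4.54 after UVB. For Klk10, Klk11 and St14 the groups overlapped on this scale as well.

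The 8 kallikreins lie in 1 cluster on chromosome 1 in RefSeq (assembly GRCr8), in the order Klk14, Klk13, Klk12, Klk11, Klk10, Klk9, Klk8, Klk7, Klk6 and Klk5. Genes that rose were not confined to one stretch of it. Klk14 and Klk13 rose at one end, Klk8 in the middle and Klk6 near the other end, where it lies between Klk7, which did not pass the test, and Klk5, which fell. The remaining cluster genes that could be tested, Klk12 and Klk9, are not among the 10 genes, and both rose. Klk12 went from 8.54 ± 1.48 TPM (SD, n = 4) to 22.6 ± 4.97 TPM (SD, n = 3), which gives a log2 fold change of 1.40 (SE 0.191; adjusted p = 0.00402, edgeR). Klk9 went from 16 ± 3.37 TPM (SD, n = 4) to 42.5 ± 8.92 TPM (SD, n = 3), which gives a log2 fold change of 1.41 (SE 0.197; adjusted p = 0.00518, edgeR). Klk4 and Klk15, beyond Klk5, stayed under 1 TPM in every library and were not tested.

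**Figure D4:**
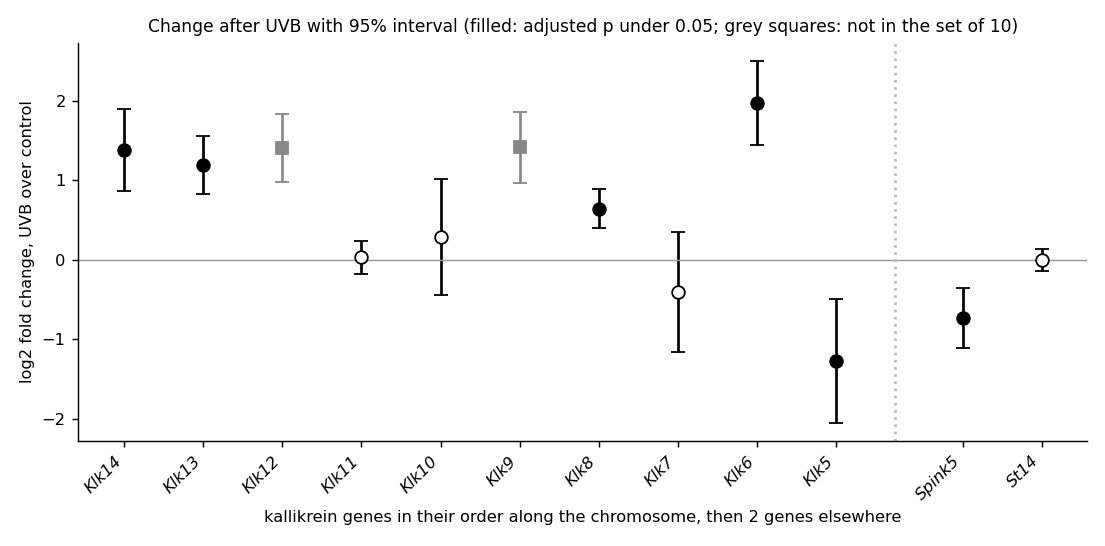
Log2 fold change of UVB over control (vertical axis) with its 95% interval for the kallikreins in their order along the chromosome, then Spink5 and St14; filled symbols passed the threshold and grey squares are Klk12 and Klk9. Values run from -1.27 in Klk5 to 1.97 in its neighbour Klk6, with the intervals of Klk11, Klk10, Klk7 and St14 crossing 0.

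Because the neighbours Klk6 and Klk5 moved in opposite directions, the sequence before the start site is shown for Klk6, Klk13 and Klk14, which rose, and Klk5, which fell. Each is the 250 bases before the RefSeq start site, 5′ to 3′ on the plus strand of GRCr8, at chr1:103415266-103415515, chr1:103301685-103301934, chr1:103268287-103268536 and chr1:103432815-103433064. Capitals mark matches to the motifs named after the sequences.
Klk6: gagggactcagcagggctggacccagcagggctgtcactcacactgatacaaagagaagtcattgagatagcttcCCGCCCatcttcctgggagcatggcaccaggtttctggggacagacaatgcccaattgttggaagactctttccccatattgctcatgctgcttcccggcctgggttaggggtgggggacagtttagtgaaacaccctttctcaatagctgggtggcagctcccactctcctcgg
Klk13: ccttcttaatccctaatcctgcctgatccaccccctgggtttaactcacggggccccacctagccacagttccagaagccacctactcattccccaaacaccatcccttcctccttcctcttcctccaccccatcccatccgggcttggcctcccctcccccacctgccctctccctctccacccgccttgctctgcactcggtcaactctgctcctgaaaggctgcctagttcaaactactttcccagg
Klk14: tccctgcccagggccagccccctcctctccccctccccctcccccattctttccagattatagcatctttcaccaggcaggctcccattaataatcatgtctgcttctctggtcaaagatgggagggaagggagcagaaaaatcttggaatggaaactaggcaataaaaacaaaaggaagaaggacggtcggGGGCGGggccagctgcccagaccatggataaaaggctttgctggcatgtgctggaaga
Klk5: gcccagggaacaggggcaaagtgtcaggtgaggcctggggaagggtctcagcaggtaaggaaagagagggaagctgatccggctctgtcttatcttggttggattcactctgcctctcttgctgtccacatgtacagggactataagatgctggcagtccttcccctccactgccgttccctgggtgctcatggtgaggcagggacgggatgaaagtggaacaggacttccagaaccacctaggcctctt

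RefSeq's table has a window from 250 bases before to 50 bases after the start site for 8 of the 10 genes, all except Klk8 and St14. In those windows 5 motifs were searched on both strands: AP-1 (TGANTCA), the TATA box (TATAAA), the GC box (GGGCGG), the Grainyhead-like motif GRHL (AACNGGTT) and C/EBP (TTNNGCAA). The GC box was in Klk6, on the minus strand and 175 bases before the start, and in Klk14, 58 bases before the start. It is common, in 33.1% of all 33469 windows of the same length. An AP-1 match, present in 7.33% of all windows, was found in Klk6 alone among the 8. It lies 43 bases after the start site, at the end of the window, whose last 30 bases (chr1:103415536-103415565) show it in capitals.
Klk6, end of window: ccacagagggacttacaggtaggTGAGTCA
Spink5, on chromosome 18, held a TATA box 29 bases before the start (14.2% of all windows have one), 2 further overlapping TATA matches farther upstream, and a GRHL match 57 bases before the start (2.1% of all windows). Klk11 held a C/EBP match (10.6% of all windows). Klk5, Klk7, Klk10 and Klk13 held none of the 5. A match of letters is a description of the sequence and was not tested as a binding site.

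Beyond the 10 genes, the wider protease network was read from 5 lists with 63 tested genes, of which 23 passed the threshold, 12 higher and 11 lower, against 13.0% of all genes tested. Without UVB b, 15 were higher and 5 lower. The lists too were chosen with earlier results of these data known, so shares of them that passed are descriptions and no test. Of the other tissue kallikreins 2 were tested, Klk9 and Klk12 above, and both rose. Among 18 tested inhibitors of epithelial proteases 4 rose (among them Serping1, Slpi and Serpinb2) and 3 fell (Cst6, Spint1 and Serpina1), with a median log2 fold change of 0.04. The call of Serpina1 held in 11 of 17 alternatives. Serping1, the C1 inhibitor that blocks plasma kallikrein and complement proteases, rose from 47.9 ± 7.73 TPM (SD, n = 4) to 117 ± 22.6 TPM (SD, n = 3), which gives a log2 fold change of 1.29 (SE 0.146; adjusted p = 0.00312, edgeR).

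Cst6 encodes cystatin M/E, an inhibitor of cysteine proteases of the cornified layer, and was the most abundant inhibitor transcript named here. It measured 2203, 3273, 3490 and 3677 TPM in the controls and 1489, 852 and 1595 TPM after UVB. All UVB libraries were below all controls, and the log2 fold change was -1.28 (SE 0.243; adjusted p = 0.0165, edgeR). Spint1, which encodes the matriptase inhibitor HAI-1, fell slightly, from 108 ± 5.35 TPM (SD, n = 4) to 89.8 ± 3.91 TPM (SD, n = 3), with a log2 fold change of -0.27 (SE 0.0561; adjusted p = 0.0174, edgeR). Its relative Spint2 stood at 304 ± 13.3 TPM (SD, n = 4) and 307 ± 6.30 TPM (SD, n = 3), with a log2 fold change of 0.01 (SE 0.0579; adjusted p = 0.909, edgeR).

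Of 18 other epidermal proteases tested, 3 rose (Tmprss11a, Tmprss11d, Plat) and 5 fell (Prss8, Prss27, Tmprss4, Tmprss11e, Pcsk6), with a median log2 fold change of -0.07. Tmprss11d and Pcsk6 each kept their call in 9 of 17 alternatives. Prss8 encodes prostasin, the membrane-linked protease that matriptase activates. It measured 81.1, 78.0, 84.6 and 82.7 TPM in the controls and 67.2, 60.6 and 61.2 TPM after UVB. The groups were well apart, and the log2 fold change was -0.39 (SE 0.0584; adjusted p = 0.00584, edgeR), beside no detected change of St14. Prss8 overlaps Kat8 in RefSeq and its deposited counts were not whole numbers, so its reads may have been shared between genes.

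The type II transmembrane proteases of the Tmprss11 family, of squamous epithelia, did not move as one. Tmprss11a rose from 5.04 ± 1.17 TPM (SD, n = 4) to 21.3 ± 8.24 TPM (SD, n = 3), with a log2 fold change of 2.07 (SE 0.276; adjusted p = 0.00594, edgeR). Tmprss11e fell from 30.9 ± 3.47 TPM (SD, n = 4) to 18.2 ± 4.08 TPM (SD, n = 3), with a log2 fold change of -0.77 (SE 0.144; adjusted p = 0.0132, edgeR). Prss27, encoding the epithelial protease marapsin, fell with a log2 fold change of -0.70 (SE 0.126; adjusted p = 0.0107, edgeR). Tmprss11a overlaps LOC120096852 in RefSeq.

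The desmosomal genes, some of whose proteins the kallikreins cut, included 3 of 14 tested that passed, 1 that rose (Dsg3) and 2 that fell (Dsg4 and Evpl), or 21.4% against 13.0% of all genes tested. Their median log2 fold change was 0.05. Dsg1, the desmoglein of the upper epidermis and a kallikrein substrate, measured 290, 297, 286 and 335 TPM in the controls and 338, 271 and 345 TPM after UVB. The groups overlapped, with a log2 fold change of 0.07 (SE 0.0974; adjusted p = 0.692, edgeR). Dsc1, its partner cadherin, had a log2 fold change of 0.05 (SE 0.231; adjusted p = 0.907, edgeR), with UVB libraries on both sides of the controls. Cdsn, encoding corneodesmosin, was not analysed here.

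Dsg3, the desmoglein of the lower layers, rose from 96.4 ± 5.31 TPM (SD, n = 4) to 136 ± 8.99 TPM (SD, n = 3), with a log2 fold change of 0.50 (SE 0.0744; adjusted p = 0.00584, edgeR). Dsg4, known from the hair shaft and the uppermost epidermis, fell from 5.92 ± 1.12 TPM (SD, n = 4) to 2.44 ± 1.32 TPM (SD, n = 3), with a log2 fold change of -1.28 (SE 0.330; adjusted p = 0.0393, edgeR), a call that held in 12 of 17 alternatives. Evpl, encoding envoplakin of the cornified envelope, had a log2 fold change of -0.40 (SE 0.103; adjusted p = 0.0320, edgeR), and its call held in 8 of 17.

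Among the 11 receptors and further targets tested, Plaur and Hgf rose and Epcam fell, with a median log2 fold change of -0.11. F2rl1 encodes PAR2, the receptor on keratinocytes that Klk5 and Klk14 proteins switch on by cutting it. It measured 5.66, 6.90, 7.31 and 5.39 TPM in the controls and 10.6, 6.94 and 6.76 TPM after UVB. UVB a was the highest and the other UVB libraries lay within the controls, with a log2 fold change of 0.35 (SE 0.172; adjusted p = 0.211, edgeR). Plaur, the urokinase receptor, rose with a log2 fold change of 1.10 (SE 0.230; adjusted p = 0.0169, edgeR) and Hgf, a growth factor activated by proteolysis, with one of 0.92 (SE 0.186; adjusted p = 0.0144, edgeR). Both were low in controls, at 2.83 ± 0.383 TPM and 1.68 ± 0.287 TPM (SD, n = 4), and Hgf overlaps LOC103692033 in RefSeq. Epcam, an epithelial adhesion protein that matriptase cuts, fell from 371 ± 25.7 TPM (SD, n = 4) to 296 ± 16.4 TPM (SD, n = 3), with a log2 fold change of -0.33 (SE 0.0684; adjusted p = 0.0167, edgeR). Its call held in 13 of 17 alternatives.

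**Figure D5:**
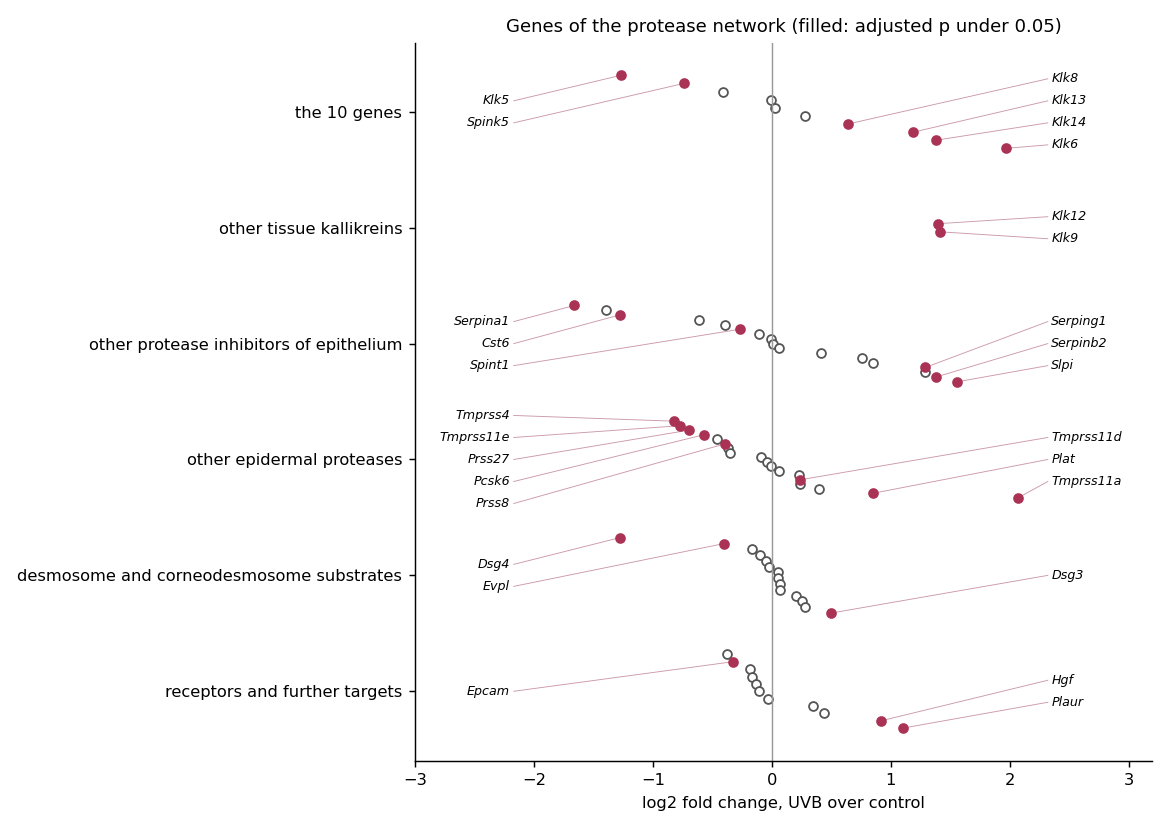
Log2 fold change of UVB over control (horizontal axis) for tested genes of the 10 and of the 5 network lists (rows), with genes past the threshold filled and named. The 10 genes spread from -1.27 to 1.97, while the desmosomal genes other than Dsg4 lie between -0.40 and 0.50.

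The genes whose levels ran most alike over the 7 libraries were looked up for 4 of the members, among genes with a mean count of at least 50, by Pearson's r of log2 CPM (counts scaled to library size). For Klk7 they were LOC100174910 (r = 0.991), Heph (0.986) and Tuft1 (0.979), and these stayed at 0.970 to 0.995 once the group means were removed. For Klk5 they were Adgrl3 (0.995), Pak1 (0.993) and Nrcam (0.990), and for Spink5 they were H3f3b (0.996), Orc3 (0.991) and Pak1 (0.990). Klk5 and Spink5, which both fell, thus shared Pak1, a kinase gene with a log2 fold change of -0.54 (edgeR adjusted p = 0.0310). For St14 they were Psmf1 (0.982), Tmem251 (0.978) and AABR07017110.1 (0.970). These are the highest values picked from all genes above that count over only 7 libraries, so they describe the libraries and carry no test.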

How the data were processed

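RNA of 4 control and 3 UVB meibomian gland samples was sequenced. The authors' deposited tables hold expected counts per gene, without normalisation, and TPM values, which the authors corrected for gene length. FastQC, Trimmomatic, DRAGEN, Picard and the rn7 build are named, without roles or versions, in the submitters' processing notes. Unquoted commas shifted cells, so each row was read from its right end, and 5 rows lacking a value were left out. Deposited TPM of a library summed to 82.0 to 84.1% of the full total. Of the deposited counts 12.5% were not whole, none of them in the 10 genes. The test was planned for whole counts, so counts were rounded. No libraries of a group agreed within sampling noise (chi-square per degree of freedom at least 10.9).

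Genes were tested in edgeR 4.0.16 (R 4.3.3; robust quasi-likelihood fit, TMM, filterByExpr), two-sided, with SE computed as the absolute log2 fold change over the square root of F. Other settings were DESeq2 1.42.0, limma-voom (limma 3.58.1), other size factors and count filters, limma-trend after adding 1 or 0.1 to TPM before log2, and each library left out, 17 in all. The fits were tested on simulated data. RefSeq (GRCr8), in which 15684 genes matched by ID, gave overlaps, gene order and promoter windows.

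The 10 genes and all lists were chosen with earlier results of these data known. Values are given for the 10, for up to 4 genes per network list with the smallest adjusted p past the threshold, and for Dsg1, Dsc1, F2rl1, Prss8, Spint1 and Spint2. Other genes that passed are named by direction. A gene that this rule gives is not reported or drawn here.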

Additional observations from a re-analysis of the deposited data

Results flagged for a closer look

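The 4 control libraries were examined for 1 library standing apart in 35 values: the TPM of the 10 genes and of the 23 network genes past the threshold, the kallikrein sum, and its ratio to Spink5. A library stood apart in 3 of them, where chance gives about 1 in 20, and each time it was control a at the low end. Serpina1, which encodes alpha-1 antitrypsin, was at 38.4 TPM in control a and at 88.7 to 95.03 TPM in the other controls. Epcam was at 332 TPM in control a and at 381 to 387 TPM in the other controls. Evpl was at 116 TPM in control a and at 147 to 153 TPM in the other controls. None of the 10 genes was among the 3. The 3 UVB libraries are too few to be examined in this way.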

How the results depend on the processing

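Klk6, Klk8, Klk13 and Klk14 passed the threshold in all 17 other settings, and the number of the 10 genes that passed ran from 4 (without control a, b or d) to 7 (without UVB c). Klk5 was lost with library size alone (adjusted p = 0.0520, edgeR), with no count filter (0.0753), on log2(TPM + 1) with no filter (0.0517), and without control a (0.0720), b (0.106), c (0.0695), d (0.108) or UVB a (0.0826). The cause was not tested. With 1 library left out at a time, 851 (without control c) to 1898 (without control a) genes and 15 (without control c) to 21 (without control a) network genes passed, where 1787 and 23 did with all libraries; the 11 lower network genes became 5 without UVB b and 6 without control c or d; the fits without control d (943 genes), UVB b (1047), control b (1097) and UVB c (1168) also moved the gene count by over 1.5 times. The log2 fold changes of Klk10 (-0.058 to 0.51), Klk11 (-0.072 to 0.11) and St14 (-0.026 to 0.028) changed sign in those fits, none past the threshold. The order after UVB kept 6 of 10 ranks without UVB a or c and 7 without UVB b. No paired analysis was possible because replicate numbers are missing from the column names. Counts behind the 10 genes were 147 to 18376 per library, and intervals were widest for Klk5, Klk7 and Klk10.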

Other observations

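Markers of the other tissues in the dissected gland differed in the same libraries. The 5 fibroblast markers summed to 896 to 1402 TPM in controls and 1176 to 1900 TPM after UVB, with Dcn, Lum and Pdgfra higher and Col1a1 (log2 fold change -0.48) and Col3a1 (0.02) not past the threshold, and the 6 skeletal muscle markers to 2237 to 3106 TPM in controls and 1597 to 2817 TPM after UVB, with Des higher (0.57) and the other 5 not past the threshold, at -0.62 (Ckm) to -0.05 (Acta1). Among the leukocyte markers Cd163, S100a9 and Cpa3 were higher and Cd207, a Langerhans cell marker, was lower after UVB. The call of S100a9 held in 10 of 17 alternatives, that of Cpa3 in 14 and that of Cd207 in 15. Those of Dcn and Des held in 11 and 13 of 17. Of the epidermal differentiation markers, Sprr1b, a cornified envelope protein gene, rose from 11.3 ± 4.21 TPM (SD, n = 4) to 148 ± 33.3 TPM (SD, n = 3) with a log2 fold change of 3.71 (SE 0.265; adjusted p = 0.000769, edgeR). Krt77, a keratin of sweat gland ducts and epidermis, fell from 24.4 ± 15.2 TPM (SD, n = 4) to 0.420 ± 0.165 TPM (SD, n = 3) with a log2 fold change of -5.90 (SE 0.634; adjusted p = 0.00348, edgeR). Sprr1b and Krt77 were singled out after their values were seen. Their relation to the kallikreins was not tested.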
